A study of Mus musculus with 4 samples.

Results

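CD4 T cells, the helper T lymphocytes that carry the CD4 co-receptor, were picked out of single-cell RNA sequencing of mouse bone marrow mononuclear cells. The members were chosen by their own UMIs of 9 genes, which are therefore given as a description and not tested. A cell was counted as a CD4 T cell when it held at least 1 UMI (unique molecular identifier, which marks 1 captured RNA molecule) of Cd3d, Cd3e or Cd3g and at least 1 of Cd4, none of Cd8a, Cd8b1 or Siglech, and at most 1 of Cd79a and Cd79b together. Of 40545 cell barcodes, 39167 had 200 to 10000 detected genes and at most 10% mitochondrial UMIs, and 80 of these (0.204%) met the rule. The study compared the marrow of TLR9-/- mice, which lack a working Tlr9 gene in every cell, with that of wild type (WT) mice. Both were on the C57BL6/J background and untreated, with 2 mice and 2 libraries per genotype. The mice were profiled in 2 independent experiments with 1 mouse of each genotype, and the labels do not say which libraries shared an experiment. The paper's single-cell section does not describe how the mononuclear cells were prepared. For other assays it describes cells flushed from femur and tibia and collected over Ficoll, in the osteoclast assay after overnight culture with M-CSF. Age and sex of these mice are not given in the sources used here, and the genotypes were bred in separate cages, so that genotype and housing cannot be told apart. The CD4 T cells numbered 21 and 40 in TLR9-/- replicates 1 and 2, and 12 and 7 in WT replicates 1 and 2, and the same order of libraries is used for all values that follow.

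T cells recognise peptide through the T-cell receptor, whose alpha and beta chains signal through the CD3 subunits and the kinase Lck. CD4 holds the receptor on MHC class II and CD8 on MHC class I. Helper cells act on other leukocytes through CD40 ligand and cytokines, whereas CD8 T cells are best known for killing. Naive cells recirculate through lymph nodes with the help of the chemokine receptor CCR7, and after activation they become effector and memory cells, many of which settle in the bone marrow. Regulatory T cells are CD4 T cells that carry FOXP3 and restrain immune responses. TLR9 is an endosomal receptor for CpG-rich DNA, and helper T cells can act on bone through RANKL, TNF and other cytokines.

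The rule rested on few molecules per cell. Cd4 (ENSMUSG00000023274, mm10 chromosome 6 from 124864692 to 124888221) had 1 UMI in 71 members, 2 UMIs in 8 and 3 UMIs in 1. The CD3 subunits together had 1 UMI in 2 members, 2 to 4 in 18 and 5 or more in 60, with a median of 7 and a highest value of 46. Of the cells just outside the rule, 1091 met everything but had no Cd4 UMI, 35 had no CD3 UMI, 9 had too many Cd79 UMIs, 6 had Siglech and 3 had Cd8a or Cd8b1. Among the 1091 cells, CD4 T cells whose Cd4 RNA was missed and T cells without Cd4 cannot be told apart, and 80 is the number of cells in which Cd4 was seen and not the number of CD4 T cells present. The median member held 1843, 2717.5, 1668.5 and 1588 UMIs, and the median cell of the whole library held 2545, 3618, 1759 and 2287. The 6 pairs of libraries shared 112 to 185 cell barcodes, and 2 CD4 T cells had a barcode found in another library, in neither case on a CD4 T cell.

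A small number of members carried abundant RNA of other blood lineages. In 13 of the 80 cells (2, 9, 2 and 0), 16 genes of monocytes, macrophages, neutrophils and progenitors summed to between 15 and 6361 UMIs, whereas no other member exceeded 8. These 13 cells were also large, with a median of 9501 UMIs against 2047 in the other 67, and they held 39.9%, 49.5%, 60% and 0% of all CD4 T-cell UMIs of their libraries and 99.4% of the myeloid UMIs. A doublet score marked 0, 3, 2 and 0 members, so that most of the 13 were not marked by it. Since sums over cells follow these 13 cells, values over all 80 members are given with values over the 67 members with fewer than 10 myeloid UMIs (19, 31, 10 and 7 cells). That limit was chosen after the data were seen, and it was applied to CD8 T cells in the same way.

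**Figure D1:**
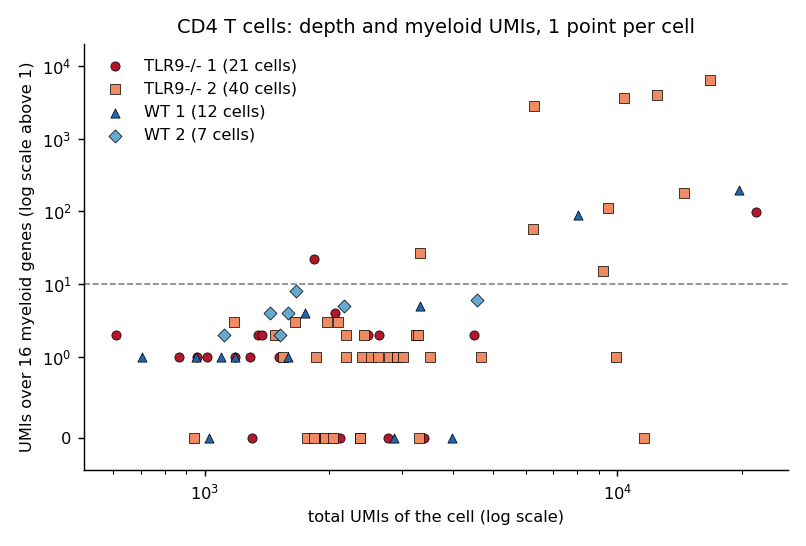
Each point is 1 of the 80 CD4 T cells, with its total UMIs on the horizontal axis and the summed UMIs of 16 myeloid genes on the vertical axis (both axes logarithmic, the vertical one linear near 0), in colours for the 4 libraries. The dashed line marks 10 myeloid UMIs, and the 13 cells above it reach 6361 while the 67 below it reach at most 8.

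The members that remained after this limit carried T-cell markers, those of CD8 T cells included, and lower sums of the other lists. The CD4 T-cell marker list has 12 genes, of which Cd4 and Cd3e (ENSMUSG00000032093, chromosome 9 from 44998740 to 45009627) served in the rule, and Cd3e was its most abundant gene with 200 UMIs in 59 of 67 cells. The 10 genes of the list that the rule did not use were all seen, with 410 UMIs in all, or 23.4, 24.7, 27.1 and 37.6 per 10000. Over the 80 members they were at 16.8, 16.1, 12.8 and 37.6 per 10000. The CD8 T-cell list, of which Cd8a and Cd8b1 are at 0 by the rule, held 564 UMIs through Ccl5 and Nkg7, 475 of them Ccl5. It stood at 11.3, 52.4, 16.2 and 13.5 per 10000. In TLR9-/- replicate 2 it exceeded the CD4 list, which stood at 43.2, 42.1, 43.3 and 48.3 per 10000. Of the Ccl5 UMIs, 282 were held by 1 cell of TLR9-/- replicate 2 that the doublet score marked. The plasmacytoid dendritic cell list held 42 UMIs (0.847, 1.99, 11.4 and 0 per 10000), of which 40 were Bst2, an interferon-inducible gene. The natural killer genes Ncr1 and Prf1, the NKT factor Zbtb16 and the gamma delta constant gene Trdc were at 0. The list of gamma delta genes reached 9 UMIs, the natural killer list 20, of which 11 were Gzma in 1 cell, and the NKT list 14. The B-lineage list held 59 UMIs, of which 49 were Ighm in 21 cells, and Ms4a1 and Vpreb3 were at 0. The neutrophil list held 76 UMIs in all (4.52, 2.76, 4.87 and 18.5 per 10000, with S100a9 as its most abundant gene) and the monocyte list 23 (1.13, 0.993, 2.71 and 3.55). In all 80 members the same lists held 16432 and 1018 UMIs, and the neutrophil list reached 22.2, 906, 3.03 and 18.5 per 10000, so that it was highest in TLR9-/- replicate 2. A UMI of the receptor constant genes Trac, Trbc1 or Trbc2, which the rule did not use, was held by 70 of the 80 cells (87.5%). The 13 cells with myeloid RNA met the rule, but their RNA also carried markers of other lineages, and 4 of them, in TLR9-/- replicate 2, held 2806 to 6361 myeloid UMIs, so that they are CD4 T cells by the rule alone.

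Over all libraries together, Cd40lg and Icos were seen more often in the CD4 gate than in the other T gates. This is given as a description with no test. Because deeper cells show any gene more often, each cell was reduced at random to 1000 UMIs, which left 61 CD4 T, 259 CD8 T and 746 other T cells under the myeloid limit, and 13042 B-lineage cells, to which no such limit was applied. Cd40lg (ENSMUSG00000031132, chromosome X from 57212143 to 57224042), which encodes the CD40 ligand through which helper cells license B cells, was then seen in 14.8% of CD4 T cells (95% exact binomial interval 6.98 to 26.2%), in 0.772% of CD8 T cells and in 8.04% of other T cells. B-lineage cells, which do not use these genes, gave a background of 0.0153%, whose source was not tested. Icos (ENSMUSG00000026009, chromosome 1 from 60977927 to 61000320), a costimulatory receptor of activated helper cells, was seen in 16.4% of CD4 T cells (8.15 to 28.1%), 1.16% of CD8 T cells, 4.96% of other T cells and 0.0307% of B-lineage cells. These intervals cover counting error only.

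Most cells with these genes came from TLR9-/- replicate 2, and WT replicate 2 with its 7 cells showed none. The CD4 T cells with Cd40lg numbered 2, 6, 1 and 0 and those with Icos 1, 8, 1 and 0. Cd40lg was seen in 12.5%, 20%, 12.5% and 0% of the CD4 T cells of the 4 libraries and in 1.56%, 0%, 0% and 0% of the CD8 T cells. Icos was seen in 6.25%, 26.7%, 12.5% and 0% of CD4 T cells against 0.781%, 0%, 6.25% and 0% of CD8 T cells. Other T cells held Cd40lg in 10.4%, 5.59%, 4.41% and 7.94% and Icos in 4.15%, 8.07%, 2.94% and 6.35%, so that in WT replicate 2 they were above the CD4 T cells for both genes. Cd28, the receptor that gives the second signal of T-cell activation, was seen in 18.8%, 20%, 37.5% and 42.9% of CD4 T cells and in 4.69%, 6.25%, 3.13% and 10.5% of CD8 T cells, so that the groups did not overlap. Ctla4, the inhibitory counterpart of Cd28, was seen in 8.2% of CD4 T and 0.386% of CD8 T cells over all libraries.

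The receptor itself was found in both gates. Trac and Trbc2, the constant parts of the alpha and beta chains, were seen in 34.4% and 41.0% of CD4 T cells and in 32.8% and 35.1% of CD8 T cells, against 0.115% and 0.199% of B-lineage cells. Without any reduction of depth, 58 of the 67 CD4 T cells (86.6%) held a UMI of Trac, Trbc1 or Trbc2. Lef1 (ENSMUSG00000027985, chromosome 3 from 131110471 to 131224356), a transcription factor of naive T cells that was given as a marker of these cells, did not separate the gates, with 13.1% of CD4 T and 17.0% of CD8 T cells, and it was also seen in 5.21% of B-lineage cells. Tcf7, its partner factor, was seen in 19.7% and 23.6%, and Il7r, the receptor for the survival cytokine IL-7, was at 31.1% and 22.4%, with 16.3% in the B lineage, whose precursors also use it. Zbtb7b, the factor that fixes the CD4 fate, was seen in 3.28% of CD4 T and 0.772% of CD8 T cells. Runx3, its counterpart for the CD8 fate, was seen in 3.28% and 10.4%. Other T cells held Zbtb7b in 3.49% and Runx3 in 10.5%, so that Zbtb7b did not separate the CD4 gate from them.

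**Figure D2:**
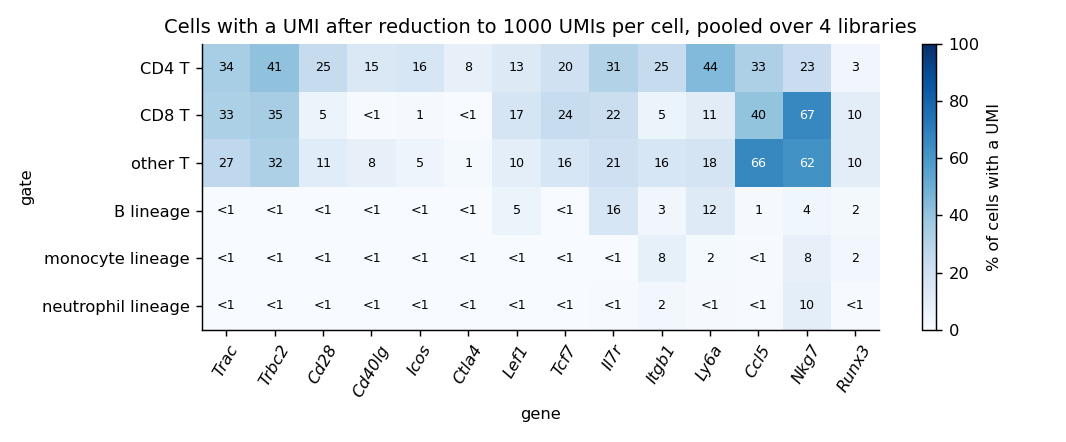
The colour and the printed number give the percentage of cells with at least 1 UMI of each of 14 genes (columns) in 6 gates (rows), after every cell was reduced to 1000 UMIs and cells with 10 or more myeloid UMIs were left out of the 3 T gates. Cd40lg, Icos, Cd28 and Ly6a are highest in the CD4 T row, at 14.8%, 16.4%, 24.6% and 44.3%, whereas Nkg7 is at 23% there and at 66.8% in CD8 T cells.

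The summed RNA of the 67 members held genes of receptor signalling, recirculation and antigen presentation. The kinase Lck had 10, 66, 5 and 6 UMIs and the phosphatase Ptprc (CD45), which switches Lck on, 21, 63, 13 and 12. Of the naive list, Klf2, which keeps homing receptors expressed, had 19, 16, 4 and 5 UMIs, Ccr7 had 7, 17, 3 and 0 and Lef1 had 4, 12, 1 and 3. These genes were seen in nearly every library, with the largest UMI sums mostly in TLR9-/- replicate 2, which also held the most cells. Of MHC class I genes, H2-K1 had 97, 367, 58 and 36 UMIs and its light chain gene B2m 77, 213, 41 and 21. Selplg, an adhesion ligand for the vessel wall, had 15, 43, 6 and 8, and Izumo1r, a folate receptor family member of regulatory T cells, 3, 23, 2 and 3.

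The variable genes of the receptor gave a view of diversity. A UMI of a beta-chain variable gene was found in 62 of the 80 CD4 T cells (16, 34, 8 and 4), and 16 of the 35 Trbv genes of the table were used. Trbv13-2 was seen in 15 cells, Trbv3 in 8, Trbv12-2 in 7 and Trbv1 in 6, while Trbv13-3, Trbv15 and Trbv20 were each seen in 5. Alpha-chain variable genes were seen in 39 cells and spread over 28 of 128 Trav genes. The CD8 T cells showed a beta variable gene in 225 of 286 cells and used 21 Trbv genes. Of the CD4 T cells, 11 held UMIs of at least 2 Trbv genes and 9 of at least 2 Trav genes. Variable genes of 1 family are alike in sequence, so that reads may have been split between them, and no joined receptor sequence was read.

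The first question was whether CD4 T cells were more frequent in TLR9-/- marrow. They made up 0.195% (0.121 to 0.298%), 0.449% (0.321 to 0.610%), 0.113% (0.0587 to 0.198%) and 0.0787% (0.0316 to 0.162%) of the cells that passed the filters, with 95% exact binomial intervals. Both TLR9-/- libraries lay above both WT libraries, although the intervals of TLR9-/- replicate 1 and WT replicate 1 overlapped. The means were 0.322% ± 0.179 (SD, n = 2) and 0.0961% ± 0.0246 (SD, n = 2), a log2 ratio of 1.72 (SE 0.69). This did not pass the test, with an adjusted p of 0.121 from edgeR's quasi-likelihood test with Benjamini-Hochberg adjustment over 9 cell classes and an unadjusted p of 0.0674 from the same fit. The exact two-sided permutation test gave p = 0.333, which is the smallest that 2 libraries against 2 allow, here 0.33 after rounding.

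The size of the difference in share followed TLR9-/- replicate 2, the deepest library. Within the equally numbered libraries the log2 ratio was 0.78 for number 1 and 2.51 for number 2, and without TLR9-/- replicate 2 the fitted log2 ratio was 1.00 (adjusted p = 0.270 by edgeR). When every cell was first reduced to 1000 UMIs, which matched the total UMIs but left out the shallower cells, the shares were 0.157% ± 0.0463 (SD, n = 2) and 0.0768% ± 0.0173 (SD, n = 2), a log2 ratio of 1.01 with an adjusted p of 0.105 by edgeR. With the 67 members, the shares were 0.262% ± 0.121 and 0.0866% ± 0.0112 (SD, n = 2 each) and the log2 ratio was 1.57 (adjusted p = 0.145). Of the other T gates, CD8 T cells had a log2 ratio of 2.11 (adjusted p = 0.0563) and other T cells 1.21 (adjusted p = 0.121). Neither passed here, although both calls depended on the setting, and the 3 double-positive T cells had -0.88 (adjusted p = 0.553). In the same fit the B lineage was at -0.67 and the monocyte lineage at 1.13, and both passed (adjusted p = 0.00648 each by edgeR).

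**Figure D3:**
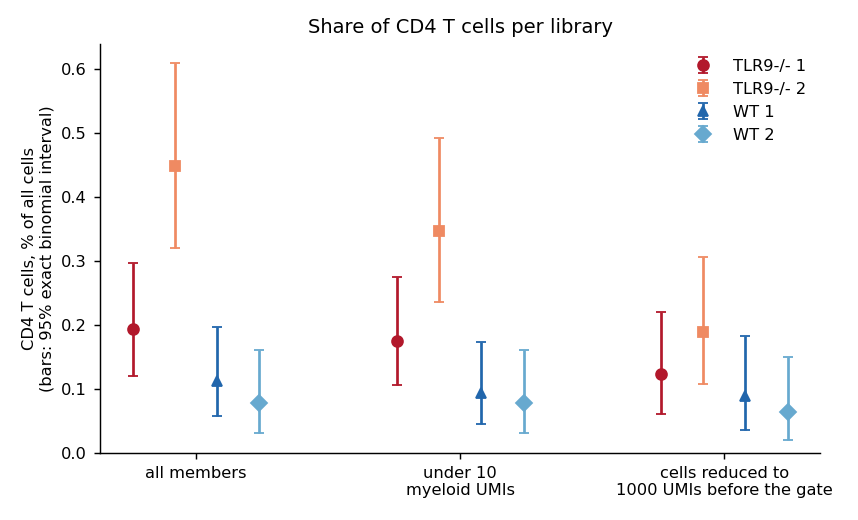
Points give the share of CD4 T cells among all cells that passed the filters, in percent, for each library under 3 settings (all members, cells reduced to 1000 UMIs before the rule, and cells with 10 or more myeloid UMIs left out), with 95% exact binomial intervals as bars. TLR9-/- replicate 2 is highest in each setting, and its distance to the other libraries is smaller after the reduction.

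The share of the CD4 gate among T cells did not pass a test between the genotypes. The gate held 3.13% (1.95 to 4.74%), 10.3% (7.43 to 13.7%), 4.92% (2.57 to 8.43%) and 4.52% (1.83 to 9.08%) of all cells of the T gates, that is 6.69% ± 5.04 in TLR9-/- and 4.72% ± 0.284 in WT mice (SD, n = 2). The genotypes overlapped, because TLR9-/- replicate 1 was the lowest library and TLR9-/- replicate 2 the highest. The difference of 1.98 percentage points had p = 1 in the exact two-sided permutation test, and it became -1.59 without TLR9-/- replicate 2 and -0.425 after reduction to 1000 UMIs.

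Tlr9 itself could not be judged in these cells. Tlr9 (ENSMUSG00000045322, chromosome 9 from 106222598 to 106226883) had 0, 0, 1 and 0 UMIs in CD4 T cells and none in CD8 T cells. Over all cells of the libraries it had 41, 48, 120 and 97 UMIs out of 50204578, 63958243, 31210188 and 41384657, so that TLR9-/- libraries still held Tlr9 reads. A tag outside the disrupted part of the gene does not test the genotype, and where these reads lie was not analysed here.

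No gene of CD4 T cells passed the test between TLR9-/- and WT mice. UMIs were summed over the members of each library (59005, 179408, 46175 and 14078 UMIs), and of 739 genes tested by edgeR's quasi-likelihood test, 0 were called at an adjusted p under 0.05 (0% of those tested). An unadjusted p under 0.05 was found for 17 genes, the lowest adjusted p was 0.999, and DESeq2 called 0 genes with 5 at an unadjusted p under 0.05. With the 67 members, 0 of 374 genes were called (0%), 11 had an unadjusted p under 0.05 and the lowest adjusted p was 0.831. None of the 18 gene lists had a called member in either set of cells.

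The genes with the largest fitted differences were those of the cells with myeloid RNA. S100a8, a calcium-binding protein of neutrophils, had 58, 4717, 9 and 9 UMIs in the 80 members, a log2 difference of 5.35 (SE 1.71) that rested on TLR9-/- replicate 2. Elane, the neutrophil elastase made by granulocyte precursors, had 3, 20, 454 and 3 UMIs, a log2 difference of -5.76 (SE 1.66) that rested on WT replicate 1. Both belong to the RNA of the 13 cells, and its part in these differences was not tested beyond their removal. After removal of the 13 cells the lowest p belonged to Actr3, a subunit of the actin-branching complex, with 23, 69, 3 and 2 UMIs and a log2 difference of 2.23 (SE 0.43, adjusted p = 0.831 by edgeR).

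T-cell genes did not pass the test either, and several varied within a genotype. Il7r had 14, 19, 17 and 10 UMIs in the 67 members, a log2 difference of -1.53 (SE 0.45) whose adjusted p by edgeR was 1.00. Ltb, a TNF family cytokine of lymphocytes, had 24, 106, 21 and 6 UMIs (log2 difference 0.27, SE 0.50). Over all members its log2 difference was 0.67, and it was not called there either. Ifi27l2a, an interferon-inducible gene, had 184, 389, 125 and 25 UMIs, which is 51.9, 42.9, 67.6 and 17.8 per 10000, so that WT replicates 1 and 2 were the highest and the lowest library. Its log2 difference was 0.17. The chemokine Ccl5 had 30, 411, 23 and 11 UMIs. In TLR9-/- replicate 2, 4 cells held 20 or more of them each, which no CD4 T cell of another library did. Of the 411 UMIs, 282 were in 1 of these cells, which the doublet score marked.

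Of 16 early response genes, 3 that were picked after their values were seen had their largest values in a single library, and none passed the test. Junb, a subunit of the AP-1 factor, had 11.6, 2.65, 2.71 and 0.710 UMIs per 10000 in the 67 members. Zfp36, which destabilises cytokine mRNA, was at 5.36, 0.331, 1.08 and 0 per 10000, and Fos at 2.54, 0.110, 0.541 and 0 per 10000. TLR9-/- replicate 1 was thus the highest library for all 3 genes while TLR9-/- replicate 2 lay in the range of WT replicate 1 or below it. Cd69, an early surface marker of activation, was at 1.41, 0.882, 0 and 2.13 per 10000, with WT replicate 2 highest and WT replicate 1 lowest.

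Subset markers were compared as shares of cells after reduction to 1000 UMIs (18, 39, 10 and 7 of the 80 cells). Of 15 markers, none passed, since the exact two-sided permutation test cannot go below 0.33 with 2 libraries against 2, and the lowest Benjamini-Hochberg adjusted value was 0.714. Cd28 was seen in 16.7%, 17.9%, 40.0% and 42.9% of cells, 17.3% ± 0.907 in TLR9-/- and 41.4% ± 2.02 in WT mice (SD, n = 2). Ly6a (Sca-1), a surface protein of activated and memory T cells, was seen in 27.8%, 33.3%, 60% and 57.1%. Ccr7, the lymph node homing receptor, was seen in 16.7%, 12.8%, 0% and 0% of cells. The libraries of the genotypes did not overlap for 7 of the 15 markers (Cd28, Ly6a and Nkg7 with WT above, and Ccr7, Cd40lg, Tcf7 and Foxp3 with WT below), and the same held for 246 of 743 genes with enough UMIs (33.1%). Among the members under the myeloid limit 4 of the 15 did not overlap (Cd28, Ccr7, Tcf7 and Ly6a), at 500 UMIs 5 and without cells holding UMIs of other lineages 11, a setting that left 1 cell in WT replicate 2. Without reduction of depth 3 of the 15 did not overlap, and Cd28 (23.8%, 42.5%, 33.3% and 42.9%) and Ly6a (38.1%, 60%, 66.7% and 57.1%) were no longer among them. The share over all genes was not computed for these other settings, so that their counts are a description only.

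The next question was how CD4 T cells differed from CD8 T cells of the same mice, which were gated alike with Cd8a or Cd8b1 in place of Cd4 and numbered 148, 85, 33 and 20 cells. Sums of CD4 and CD8 T cells were compared within libraries, and the 9 genes of the rule were left out. Over all members, edgeR's quasi-likelihood test with Benjamini-Hochberg adjustment called 6 of 788 genes (0.761%), of which 2 were higher in CD4 T cells (0.254%) and 4 lower (0.508%). With upper-quartile scaling the split was 5 higher and 21 lower, and with DESeq2 5 and 57. With the 67 CD4 T cells and 266 CD8 T cells under the myeloid limit, 139 of 702 genes were called (19.8%), 55 higher (7.83%) and 84 lower (12%), and with DESeq2 16 higher and 72 lower. All 6 genes of the first set were among the 139. The values that follow are log2 differences of CD4 minus CD8 T cells among the 67 and 266 cells by edgeR, with the value over all members where that set was called too.

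Among the few interferon-inducible genes that could be tested, most were higher in CD4 T cells. Ly6a (ENSMUSG00000075602, chromosome 15 from 74994877 to 74998031) was at 7.34, 12.5, 16.8 and 10.7 UMIs per 10000 in CD4 T cells and at 1.08, 1.19, 3.24 and 1.07 in CD8 T cells. Every CD4 library was above every CD8 library, the means were 11.8 ± 3.93 and 1.65 ± 1.06 (SD, n = 4), and the log2 difference was 2.83 (SE 0.23, adjusted p = 8.09e-07 by edgeR). Over all members it was 2.29 (SE 0.33, adjusted p = 0.00901 by edgeR), and after reduction to 1000 UMIs Ly6a was seen in 44.3% of CD4 T, 11.2% of CD8 T and 12.5% of B-lineage cells. Other T cells held 3.42 ± 0.684 UMIs of Ly6a per 10000 (SD, n = 4).

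Ifi27l2a (chromosome 12 from 103442167 to 103443680), a small mitochondrial protein induced by interferon, was at 51.9, 42.9, 67.6 and 17.8 per 10000 in CD4 T cells and at 8.64, 4.65, 22.0 and 7.72 in CD8 T cells. WT replicate 2 of the CD4 T cells fell inside the CD8 range, but each library had more Ifi27l2a in its CD4 than in its CD8 T cells. The log2 difference was 2.19 (SE 0.24, adjusted p = 6.84e-06 by edgeR) and over all members 1.66 (SE 0.33, adjusted p = 0.0489). Ly6e was higher by 0.76 (adjusted p = 0.00507 by edgeR). Of the interferon list, 3 of the 4 members tested were higher and none lower, with a median of 1.47 against 0.07 for all genes, and the other members of that list were too low to test. Ly6a and Ly6e belong to a family of neighbouring, similar genes.

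Among the 67 and 266 cells, 14 effector memory genes were tested. In CD4 T cells 8 were higher, 3 were lower and 3 were not called. Their median log2 difference was 1.15 against 0.07 for all genes, of which 7.83% were higher and 12% lower. Over all members none was called. The neutrophil gene S100a9, which entered the myeloid limit, was also higher in these CD4 T cells, by 0.97 (adjusted p = 0.0481 by edgeR). Over all members S100a9 was at -0.16 and not called. The part of remaining myeloid RNA in these differences was not tested. S100a10, a partner of annexin A2, had 113, 211, 55 and 59 UMIs, or 31.7 ± 7.73 per 10000 against 8.07 ± 3.62 in CD8 T cells (SD, n = 4), a log2 difference of 1.88 (SE 0.21, adjusted p = 7.36e-06 by edgeR). S100a6 had 84, 183, 16 and 48 UMIs (21.7 ± 10.5 against 5.47 ± 3.39 per 10000), a log2 difference of 2.12 (SE 0.38, adjusted p = 0.000764 by edgeR). WT replicate 1 was the lowest CD4 library for S100a6 and lay inside the CD8 range.

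Itgb1, the beta-1 integrin through which memory cells hold on to matrix and stroma, had 11, 40, 9 and 1 UMIs, and its log2 difference of 2.24 (SE 0.43, adjusted p = 0.00119 by edgeR) rested on 3 libraries, since WT replicate 2 held 1 UMI. The intermediate filament gene Vim was at 7.06, 7.72, 8.66 and 7.81 per 10000 in the 4 libraries, a narrow range. It was higher than in CD8 T cells by 1.26, S100a11 by 1.60, the factor Id2 by 1.56, the galectin gene Lgals1 by 1.11 and Crip1 by 0.70, with adjusted p values of 0.00157, 0.000153, 0.00285, 0.00357 and 0.00268 by edgeR.

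The 3 effector memory genes that were lower in CD4 T cells were Ccl5, Nkg7 and Ly6c2. Ccl5, a chemokine stored by memory CD8 T cells, was at 18.5 ± 18.0 per 10000 in CD4 and 57.2 ± 23.5 in CD8 T cells (SD, n = 4), a log2 difference of -1.64 (SE 0.49, adjusted p = 0.0257 by edgeR). Nkg7, a granule protein of killer cells, was at 4.84 ± 1.90 and 13.4 ± 1.84 (log2 difference -1.51, SE 0.26, adjusted p = 0.000562), and the CD4 and CD8 libraries did not overlap. Ly6c2 was lower by -0.90 on the log2 scale (adjusted p = 0.0109 by edgeR). The granule protease Ctsw was lower as well, at -0.95 among the 67 members (adjusted p = 0.0258) and -1.60 over all members (adjusted p = 0.0370). The perforin gene Prf1 was at 0 in CD4 T cells, and both cytotoxic genes tested, Nkg7 and Ctsw, were lower. Still, 26 of the 67 CD4 T cells (38.8%) held a UMI of Ccl5 or Nkg7, as did 233 of 266 CD8 T cells (87.6%).

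**Figure D4:**
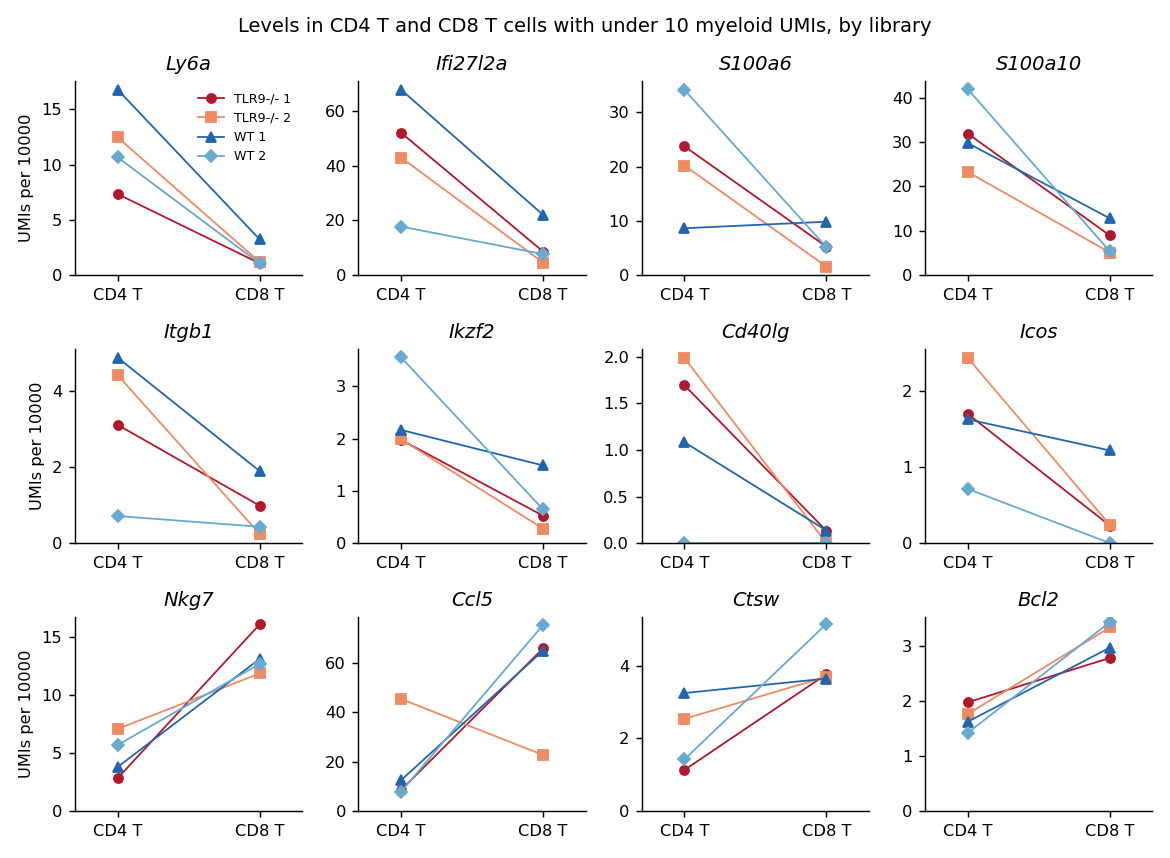
For 12 genes, points give the UMIs per 10000 of each library, summed over the 67 CD4 T cells and the 266 CD8 T cells with fewer than 10 myeloid UMIs. For Ly6a the CD4 points lie between 7.34 and 16.8 and the CD8 points between 1.07 and 3.24, whereas for Nkg7 the CD8 points are the higher ones.

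Few receptor and costimulation genes were called, and most costimulation genes were too sparse to test. Of 10 receptor signalling genes tested, 2 were higher in CD4 T cells and none lower, with a median of 0.32 against 0.07 for all genes. Of all genes tested, 19.8% were called and 7.83% were higher, so that 2 of 10 is not read as a trait of the list. Cd5, which tunes receptor signals and is set by the strength of self-recognition, had 12, 17, 5 and 3 UMIs, 2.52 ± 0.671 per 10000 against 0.722 ± 0.175 (SD, n = 4), and a log2 difference of 1.56 (adjusted p = 0.00436 by edgeR). The adhesion receptor Cd2 was higher by 0.72 (adjusted p = 0.0460), but over all members its log2 difference was 0.17 and turned to -0.20 without WT replicate 2 and to -0.18 without the filter on low counts. The adapter Lat, with 28, 74, 14 and 15 UMIs, had a log2 difference of 0.58 that did not pass (adjusted p = 0.0510 by edgeR).

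Tnfrsf18, which encodes the costimulatory receptor GITR, had 8, 30, 6 and 7 UMIs and was higher by 1.39 (adjusted p = 0.00657 by edgeR), the called member of 2 costimulation genes tested. With so few tested, no share is read from this list. The marker genes of helper cells were too sparse for this test. Cd40lg was at 1.19 ± 0.878 per 10000 in CD4 and 0.0665 ± 0.0768 in CD8 T cells, Icos at 1.61 ± 0.703 and 0.421 ± 0.541, and Cd28 at 2.65 ± 1.58 and 0.675 ± 0.184 (SD, n = 4). Of 6 naive and central memory genes tested none was called (median -0.24). Bcl2, the survival factor, was lower in CD4 T cells, at 1.70 ± 0.234 against 3.13 ± 0.306 per 10000 (SD, n = 4) and a log2 difference of -0.94 (adjusted p = 0.0229).

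Among the remaining lists, antigen presentation and adhesion genes had called members, where 7.83% of all genes tested were higher in CD4 T cells. These lists are short, and their counts are a description. Of 7 MHC class I genes 3 were higher in CD4 T cells and none lower, namely H2-D1 by 0.48, H2-T23 by 0.91 and the immunoproteasome subunit Psmb9 by 1.05 (adjusted p values 0.0461, 0.00836 and 0.00373 by edgeR). MHC class I genes are similar to each other, so that reads of H2-D1 may have been split, and over all members its log2 difference was -0.19 without the filter on low counts. Of 6 homing genes, Itgb7, a subunit of gut homing integrins, was higher by 0.88 (adjusted p = 0.0290 by edgeR), and of 2 lineage factors tested Ets1 by 0.88 (adjusted p = 0.0106). Junb was higher by 1.21 (adjusted p = 0.00718) with most of its UMIs in TLR9-/- replicate 1. None of 4 cytokine receptors tested, nor the only bone cytokine tested, Ltb at 8.52 ± 3.62 and 8.54 ± 1.29 per 10000, was called. The Th1, Th2, Th17 and cell cycle lists had no member with enough UMIs to test.

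Other genes with large differences were of mixed function. Ass1, an enzyme of arginine synthesis, had 8, 28, 4 and 3 UMIs in CD4 T cells and was higher by 2.32 (SE 0.40, adjusted p = 0.000559 by edgeR). Sdf4, a calcium-binding protein of the Golgi, was higher by 1.68 and Pglyrp1, a peptidoglycan recognition protein, by 1.45 (adjusted p = 0.00157 and 0.00507). Lower in CD4 T cells were Cenpx, a protein of the centromere, at -1.45, the mitochondrial proteins Dnajc15 at -1.19 and Hspe1 at -0.81, and the ribosomal protein genes Rpl5 at -0.85, Rpl13 at -0.81 and Rpl4 at -0.78 (adjusted p values of 0.0118, 0.0479, 0.0472, 0.0221, 2.87e-06 and 0.0235 by edgeR).

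Most ribosomal protein genes were lower in CD4 than in CD8 T cells. Of 80 tested, 64 were lower, 0 were higher and 79 had a negative log2 difference, with a median of -0.52 against 0.07 for all genes. Over all members 2 were called lower and 78 were negative, with a median of -0.45 against 0.06. Rps24 fell by 0.80 on the log2 scale over all members (SE 0.11, adjusted p = 0.00685 by edgeR), and Rpl13 fell by 0.74 (adjusted p = 0.0464). Ribosomal protein genes made up 31.8%, 29.6%, 31.6% and 31.2% of the UMIs of the 67 CD4 T cells and 40.7%, 41.7%, 39.2% and 43.6% of those of CD8 T cells, so that no library overlapped, and other T cells lay between them at 34.6% ± 0.398 (SD, n = 4). Upper-quartile scaling moved the median of all genes from 0.06 to -0.05 over all members. Many ribosomal protein genes have processed pseudogenes, with which reads may have been shared.

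Hbb-bs, an adult beta-globin gene of red cell precursors, had the largest difference. It had 4, 5, 8 and 2 UMIs in the 67 CD4 T cells and 977, 116, 622 and 3 in the 266 CD8 T cells, a log2 difference of -4.03 (SE 0.36, adjusted p = 8.09e-07 by edgeR). Its level in CD8 T cells ran from 0.644 to 84.0 per 10000, and in WT replicate 2 the CD4 T cells had the larger value, 1.42 per 10000. Globin RNA comes from another cell type, and its part in the other differences was not tested. Hbb-bs and Hbb-bt are near-identical copies between which reads may have been split.

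**Figure D5:**
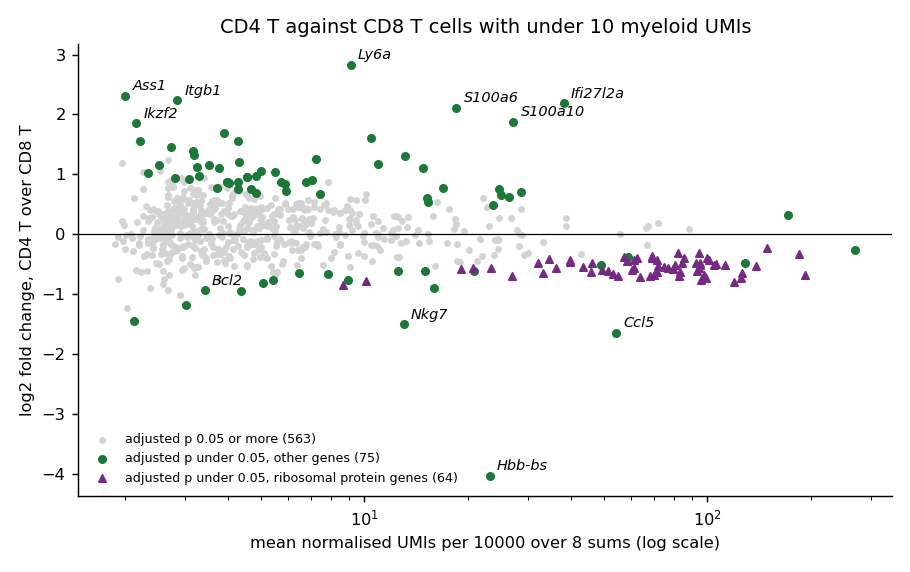
Each point is 1 of 702 genes, with its mean level on the horizontal axis and the log2 difference of CD4 minus CD8 T cells on the vertical axis, from the 67 and 266 cells with fewer than 10 myeloid UMIs. Of the 139 called genes, the 64 ribosomal protein genes are drawn apart and all lie below 0, and the other 75 include Ly6a at 2.83 and Nkg7 at -1.51.

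Naive and effector genes were compared cell by cell. At full depth, 23 of the 67 CD4 T cells held a naive gene (Ccr7 or Lef1), and 11 of these also held an effector gene (S100a4, S100a6 or Itgb1), while 30 cells held effector genes alone and 14 neither. Of the 266 CD8 T cells, 104 held naive genes alone, 58 effector genes alone, 22 both and 82 neither. After reduction to 1000 UMIs, 18.0% of CD4 T cells held only naive genes, 50.8% only effector genes, 3.28% both and 27.9% neither. For CD8 T cells the shares were 26.6%, 18.9%, 1.54% and 52.9%, and at this depth few cells can show both. Effector genes alone were seen in 56.3%, 46.7%, 50% and 57.1% of CD4 T cells and in 24.2%, 10%, 18.8% and 21.1% of CD8 T cells, and the lowest CD4 library was above the highest CD8 library. S100a6 and Itgb1 were already called higher in CD4 T cells from the same cells, so that this order is not a separate result. It also depends on the genes chosen. Ccl5 or Nkg7, effector memory genes outside this set, were held by 38.8% of CD4 and 87.6% of CD8 T cells at full depth. Naive genes alone were seen in 18.8%, 20%, 12.5% and 14.3% of CD4 T cells against 24.2%, 33.8%, 15.6% and 31.6% of CD8 T cells, and these ranges overlapped, although each library had the larger share in its CD8 T cells. S100a6 was also seen in 73.5% of monocyte-lineage, 59.2% of neutrophil-lineage, 38.5% of other T and 9.43% of B-lineage cells, against 41.0% of CD4 T cells, so that a UMI of this gene is not particular to T cells.

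Foxp3, the factor that marks regulatory T cells, was seen in a few cells. Foxp3 (chromosome X from 7573644 to 7595245) was seen in 6 of the 67 CD4 T cells (0, 5, 0 and 1), which is 8.96% (3.36 to 18.5%), in 1 of 266 CD8 T cells (0.376%) and in 13 of 16792 B-lineage cells (0.0774%), at unreduced depth. All 6 cells also held Ikzf2 (Helios) and Tnfrsf18, 5 held Capg, 4 Ctla4, 3 Tnfrsf4 and 1 the IL-2 receptor gene Il2ra. Of these 6 cells, 5 came from the deepest library. After reduction to 1000 UMIs, Foxp3 was seen in 1 of 61 CD4 T cells (1.64%), 1 of 259 CD8 T cells (0.386%), 10 of 746 other T cells (1.34%) and 3 of 13042 B-lineage cells (0.0230%), so that a difference between the T gates was not detectable at matched depth. Ikzf2 was higher in CD4 than in CD8 T cells over the sums, with 7, 18, 4 and 5 UMIs, 2.42 ± 0.760 against 0.733 ± 0.524 per 10000 (SD, n = 4) and a log2 difference of 1.86 (SE 0.43, adjusted p = 0.00507 by edgeR). At 1000 UMIs per cell, Ikzf2 was seen in 13.1% of CD4 T, 4.25% of CD8 T and 12.5% of other T cells, so that it is not particular to the CD4 gate. Ikzf2 and Tnfrsf18 were the 2 members of the regulatory list that could be tested.

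Genes of other helper subsets were rare. Of the Th1 list, the chemokine receptor Cxcr3 had 5, 27, 1 and 0 UMIs, the master factor Tbx21 1, 5, 0 and 0, and Ifng 0, 3, 0 and 0. Of the Th2 list, Gata3 had 5, 4, 1 and 3 UMIs, Il4 1, 2, 0 and 0, and Il13 2, 0, 0 and 0. Of the Th17 list, Rora had 2, 7, 1 and 1 UMIs, while Il17a, Ccr6, Il23r and Il22 had none. The follicular helper genes Sh2d1a and Maf had 13, 16, 1 and 6 and 5, 21, 3 and 1 UMIs, whereas Bcl6 had none and Cxcr5 had 1.

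Cytokines that act on bone were sparse except for Ltb, whose UMIs are given above. Tnf, Il17a and Il6 had no UMI in the 67 members, and Tnfsf11, which encodes RANKL, had 0, 2, 0 and 1. A count of 0 allows up to 3 UMIs, which is 0.847, 0.331, 1.62 and 2.13 per 10000 in the 4 libraries, so that a difference between the genotypes was not detectable at this depth. At least 1 UMI of Tnf, Tnfsf11, Ifng or Il17a was found in 5 of the 67 CD4 T cells (0, 4, 0 and 1) and in 11 of 266 CD8 T cells. No restimulation of the cells before sequencing is described. Mki67 or Top2a, which mark dividing cells, were seen in 6 of the 67 members (0, 4, 2 and 0) and in 24 of 266 CD8 T cells (9.02%).

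The last question was whether TLR9-/- and WT mice differed in another way in CD4 than in CD8 T cells. The interaction of genotype and cell type was called for 5 of 1097 genes (0.456%) by edgeR. They were Mpo, Ctsg, Ms4a3 and Elane, which are granule or precursor genes of myeloid cells, and Gstm1. Mpo, which encodes myeloperoxidase, had 3, 3, 189 and 0 UMIs in CD4 T cells and 141, 546, 0 and 0 in CD8 T cells. The high libraries were thus WT replicate 1 for CD4 T cells and both TLR9-/- libraries for CD8 T cells. With the 67 and 266 cells under the myeloid limit, 0 of 1003 genes were called (0%), with 35 at an unadjusted p under 0.05, and DESeq2 called 0 over all members with 19 at an unadjusted p under 0.05.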

How the data were processed

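Bone marrow mononuclear cells of 4 mice were captured with a 10x Genomics 5′ end kit. The authors' processing notes name Cell Ranger, STAR and Seurat 2.3.4 with the build mm10. The deposited values are UMI counts per gene and cell barcode (31053 genes), not normalized, with library totals of 50204578, 63958243, 31210188 and 41384657 UMIs (TLR9-/- replicates 1 and 2, WT replicates 1 and 2). A count of 5′ ends reads 1 end of each transcript and was not corrected for gene length, so tests compared levels between samples, and an order of genes by UMIs is one of captured molecules, not of transcript levels.

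Cells with 200 to 10000 genes and at most 10% mitochondrial UMIs were gated on marker UMIs. Counts were summed per library and gate, and tested with edgeR 4.0.16 in R 4.3.3 (quasi-likelihood F test, TMM scaling, filterByExpr with a minimum count of 10, two-sided, Benjamini-Hochberg adjustment over all genes tested, threshold 0.05), with the library as a block between gates. DESeq2 1.42.0 was an alternative. The 9 genes of the gates were left out of calls. Cell numbers of 9 gate classes were tested with edgeR, with all cells as library size. Doublets were scored with the Scrublet routine of scanpy 1.11.5, taking the top 0.8% per 1000 cells, and were kept. Shares of cells were compared after random reduction to 1000 UMIs per cell. The alternatives are given at the end, and leaving out cells with 10 or more UMIs of 16 myeloid genes (Lyz2, Csf1r, Ms4a6c, F13a1, C1qa, C1qb, C1qc, S100a8, S100a9, Camp, Ngp, Ltf, Retnlg, Mpo, Cd34, Kit) was added after seeing the data. The edgeR step was tested on simulated counts, with changes of 2 log2 units either way and a fixed spread not fitted to these data. Smaller changes were not simulated, so that the recovery does not tell how many of them would be found. Of 153 genes changed between genotypes 85.0% were recovered, with 11 false calls among 704 genes, and of 175 changed between gates 97.7%, with 2 false calls among 811.

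Each mouse is 1 replicate. The genes named were Tlr9, the marker genes, up to 6 members with the highest levels and all called members of each of 18 lists (180 genes), and the 12 called genes with the largest log2 difference in each direction, to which genes noted in the text for their cells or libraries were added. The members, lists and genes were chosen with earlier results of these data known. Per 10000 means UMIs of a gene per 10000 UMIs of the same cells. Coordinates and gene identifiers are those of the GENCODE annotation of mm10 and of the deposited gene table. Intervals and limits from a count of 0 cover counting error only. A few genes of the lists are not reported here.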

Additional observations from a re-analysis of the deposited data

Results flagged for a closer look

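Of the genes tested for a different genotype effect in CD4 and CD8 T cells, 5 passed the interaction test of edgeR over all members, and their fitted values depend on the prior count because WT CD8 T cells held few or none of their UMIs. Mpo differed by -16.65 on the log2 scale (adjusted p = 0.0164 by edgeR), with UMIs of 3, 3, 189 and 0 in CD4 T cells and 141, 546, 0 and 0 in CD8 T cells. Ctsg, another granule protease, differed by -14.93 (adjusted p = 0.00545 by edgeR; 1, 11, 93 and 0 against 84, 520, 0 and 0 UMIs). Ms4a3, a gene of granulocyte and monocyte precursors, differed by -13.42 (0, 4, 47 and 0 against 28, 111, 0 and 0 UMIs). Elane differed by -12.71 (3, 20, 454 and 3 against 284, 1381, 0 and 2 UMIs), and Gstm1, a detoxifying enzyme, by -10.90 (1, 8, 35 and 1 against 12, 60, 0 and 0 UMIs). None of the 5 passed among the cells with fewer than 10 myeloid UMIs.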

How the results depend on the processing

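The share of CD4 T cells among all cells kept its direction under all alternatives and passed the test in none of them, with log2 ratios from 1.00 (without TLR9-/- replicate 2) to 2.20 (without TLR9-/- replicate 1). With TMM scaling over the cell classes the log2 ratio of CD4 T cells was 1.28 (adjusted p = 0.230 by edgeR). Among T cells, the difference in share became -0.425 percentage points after reduction to 1000 UMIs and ranged from -1.59 to 5.54 when single libraries were left out. For TLR9-/- against WT, 16 genes were called without the filter on low counts, and 0 to 17 when a library was left out (17 without TLR9-/- replicate 1 and 2 without TLR9-/- replicate 2). For CD4 against CD8 T cells, the 6 calls became 26 with upper-quartile scaling, 85 without a filter, 62 with DESeq2, 83 without cells holding UMIs of other lineages, 25 without doublets, 24 after reduction to 1000 UMIs, 139 under the myeloid limit, and 3 (without TLR9-/- replicate 2 or WT replicate 2) to 13 when a library was left out. Within the myeloid limit there were 88 with DESeq2, 40 after reduction to 1000 UMIs, and 73 (without WT replicate 2) to 147 when a library was left out. The interaction gave 16 genes without the filter, 0 with DESeq2 and 0 under the myeloid limit. The causes of these changes were not tested.

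Of single genes over all members, Ifi27l2a between genotypes ranged from -0.36 to 0.99 and Ccl5 from -0.29 to 2.22 when libraries were left out. Between CD4 and CD8 T cells over all members, Cd2 became -0.18 and H2-D1 -0.19 without the filter, and Cd2 ranged from -0.20 to 0.37. Of the marker shares between genotypes, in percentage points, Cd40lg was -0.536, Trbc2 -8.51, S100a4 -6.43 and Nkg7 5.30 at 500 UMIs, Lef1 3.81 and S100a4 -4.76 without reduction, and Lef1 8.61 and Cd28 2.45 without cells holding UMIs of other lineages, which left 1 cell in WT replicate 2. When libraries were left out, Lef1 ranged from -2.32 to 1.97, Trac from -40.4 to 0.983, Trbc2 from -18.3 to 18.9, Il7r from -24.8 to 10.9, S100a4 from -4.45 to 10.1 and S100a6 from -15.4 to 17.5.

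The labels number the libraries 1 and 2 in both genotypes but do not say that a number marks an experiment, and the correlation of deviations between equally numbered libraries was 0.0129 across 743 genes and 0.111 across 378 under the myeloid limit, from sparse sums of 2 pairs. Their barcode numbers were alike (11069 and 11108, 9173 and 9195), as was Gm42418 in the 80 members (25.9 and 16.7, 124 and 116 per 10000), so that a shared experiment was not settled either way. With the replicate block the share had a log2 ratio of 1.62 (adjusted p = 0.0515 by edgeR) and 0 genes were called between genotypes. It brought the shares of CD8 T cells (log2 ratio 2.11, adjusted p = 0.00424) and other T cells (1.19, adjusted p = 0.00586) past the threshold, as did leaving out erythroid and neutrophil cells (0.0100 and 0.00831) and, for CD8 T cells alone, a CD3 minimum of 2 UMIs and leaving out doublets (0.0489 each). The block brought those of the erythroid and neutrophil classes to 0.0494. Without the library block 7 genes, or 59 under the myeloid limit, were called between CD4 and CD8 T cells. Limits are the 2 mice per genotype and the 7 to 40 cells per library, and no value separates fewer RNA molecules per cell from fewer cells of a subset.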

Other observations

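The 13 CD4 T cells with myeloid RNA were of several kinds. In TLR9-/- replicate 2, 4 cells held between 1870 and 4239 UMIs of S100a8 and S100a9 together and between 879 and 1884 of the granule genes Camp, Ngp, Ltf and Retnlg. In WT replicate 1, 1 cell held 1018 UMIs of Mpo, Elane and Prtn3 out of 19660 in all. Lyz2, the lysozyme of monocytes and neutrophils, reached 238 UMIs in a single cell, and 1 cell held 16 UMIs of the C1q genes of macrophages. Each of the 13 met the rule on CD3, Cd4 and Cd8 RNA.

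The most abundant RNAs of the 67 other members were Tmsb10 and Tmsb4x, which encode thymosins that bind actin, at 182 ± 19.1 and 141 ± 12.2 UMIs per 10000 (SD, n = 4). Between CD4 and CD8 T cells these 2 genes went opposite ways, Tmsb10 at -0.26 and Tmsb4x at 0.32 on the log2 scale (adjusted p = 0.00166 and 0.0127 by edgeR).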
